A study of Mus musculus with 4 samples.

Results

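The growth hormone receptor, STAT5 and IGF1 axis was examined in liver RNA as 10 genes taken by name, a list drawn up with earlier results of these data known: Ghr, Prlr, Stat5a, Stat5b, Igf1, Igfals, Socs2, Cish, Bcl6 and Cux2. They are 10 of 27431 genes named on the array, and 21 of its 39429 probes carry their names. Of these, 18 probes from 9 genes were tested among 20816 in all, the rest not being well above background in 3 or more mice of either genotype. The tested mice were 4 males, 2 months old, of a mixed strain, whose NIPP1 was conditionally knocked out in liver. The others were 4 control males of the same age and strain description, and all 8 mice were untreated. NIPP1 is the product of Ppp1r8 and regulates protein phosphatase 1 in the nucleus. The sources used here do not give the Cre line, the deleted exons or the alleles of the control mice.

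Total liver RNA was hybridised to 4 two-colour Agilent mouse arrays, each holding 1 knockout and 1 control mouse, and no mouse was used on more than 1 array. The dyes were swapped between replicates 1 and 2 and replicates 3 and 4. The mice labelled Cy3 were therefore knockout mice 1 and 2 and control mice 3 and 4, and the mice labelled Cy5 were knockout mice 3 and 4 and control mice 1 and 2. A value of 1 array is a log2 ratio of knockout over control, and a level of 1 mouse is the normalized log2 intensity of a probe in that mouse's dye. Errors written ± SE come from the limma fit, which holds a dye term and so leaves out any difference between the dye orientations. The p-values of that fit rest on the spread of array ratios within each dye orientation. For each probe limma draws this spread toward a value estimated over all tested probes. Differences between mice that follow the dye are left out of these p-values. In whole liver RNA, fewer cells of a type and less RNA per cell cannot be told apart.

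Growth hormone released by the pituitary binds its receptor on hepatocytes, which activates the kinase JAK2 and then the transcription factors STAT5A and STAT5B. STAT5 raises transcription of Igf1 and Igfals, whose products circulate together as a hormone complex, and of Socs2 and Cish, whose products dampen the receptor's signal. In male rodents the hormone is released in pulses and in females more evenly, and STAT5B, BCL6 and CUX2 are known to take part in the sex bias of liver gene expression that follows from this pattern.

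STAT5 dimers are known to recognise the letters TTCNNNGAA, which read the same on both strands, and this was the sole motif searched. In RefSeq windows from 250 bases before to 50 after each gene start (build GRCm38.p6), at least 1 match stood in 8.3% of 32851 windows, at least 2 in 0.457% and at least 3 in 0.0335%. Of the members, 9 had windows, 18 in all, and Socs2 had none. Cish, Bcl6, Igfals and Prlr held a match, where 9.55% of all 27025 genes with a window did. The members had more windows per gene than all genes, so these shares are not measured alike. The stretches with several matches are shown because Cish and Bcl6 are also the members whose levels differed most among the mice. Capitals mark the TTC and GAA letters of each match. The Cish stretch is on the plus strand at chr9:107296609-107296678, with matches that start at the gene start and 11 bases past it. The Bcl6 stretch is on the minus strand at chr16:23981353-23981461, in the Bcl6 window with the most matches. They start at positions -168, -122 and -88 from the gene start of that window. The other Bcl6 window, at chr16:23988803-23989102, belongs to a different start and held 1 match, at -118. A match is a run of letters and not a measured binding site.
Cish: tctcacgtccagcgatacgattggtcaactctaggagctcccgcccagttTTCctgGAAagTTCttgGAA
Bcl6: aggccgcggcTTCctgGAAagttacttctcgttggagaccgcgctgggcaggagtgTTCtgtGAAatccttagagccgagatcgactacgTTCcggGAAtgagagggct

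The arrays and labels were checked first. The share of spots well above background was 52.7% to 56.3% per array and dye, no spot was saturated, and all 4 arrays lay on 1 slide read in 1 scan. Ppp1r8 was lower in the channel labelled knockout on all 4 arrays, with -0.60, -0.74, -0.74 and -0.63 at its brighter probe (-0.68 ± 0.05 SE, limma adjusted p 0.0522, and 0.000696 in a separate-channel limma fit). The sources used here do not say whether that probe lies in the deleted part. Correlations between arrays across probes, which are not independent replicates, ran from 0.53 for replicates 3 and 4 to -0.25 for replicates 1 and 4. All 10 hepatocyte markers were tested, and their summed linear intensity was 933917 to 1277280 in knockout mice and 849109 to 1264810 in control mice. Knockout mouse 1 stood apart in 14 pancreatic acinar markers, with a sum of 56194.5 against 4656 to 5088 in the other knockout mice and 5219 to 14605 in control mice. The part of pancreatic RNA in the results of replicate 1 was not tested, and values without that replicate are given beside several of the results it moved.

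No probe of the axis passed an adjusted p of 0.05 in limma, 0 of 18, where 0.173% of all tested probes did (0.12% higher and 0.0528% lower in knockout livers). At an unadjusted p under 0.05 there were 2 higher and 4 lower member probes, 33.3% of the 18 against 23.2% of all probes (12.9% higher and 10.3% lower). These were both Prlr probes above 0, and 1 Ghr probe, 2 Igf1 probes and the Bcl6 probe below 0. Without the dye term 6 member probes had an unadjusted p under 0.05, or 33.3% against 15.8% of all probes, and 0 passed after adjustment, against 0.307%. In that fit a Stat5b probe below 0 took the place of the Bcl6 probe. On all 4 arrays 5 member probes had 1 sign, 2 higher and 3 lower, or 27.8% against 24.5% of all probes (13.4% higher and 11.1% lower). Knockout mice lay wholly above control mice at 1 member probe and wholly below at 2, or 16.7% against 12.3% of all probes (7.11% above and 5.22% below). The separate-channel fit called both Prlr probes higher and 1 probe each of Ghr and Igf1 lower in knockout livers, or 22.2% against 17.6% of all probes (10% higher and 7.55% lower). With 18 probes each probe makes 5.56%, and several probes share a gene. The unadjusted share without the dye term lay furthest from that of all probes. By the brightest probe of each gene, 22.2% of the 9 members had an unadjusted limma p under 0.05, against 23.4% of all genes. No result about the members as a set is read from these shares.

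**Figure D1:**
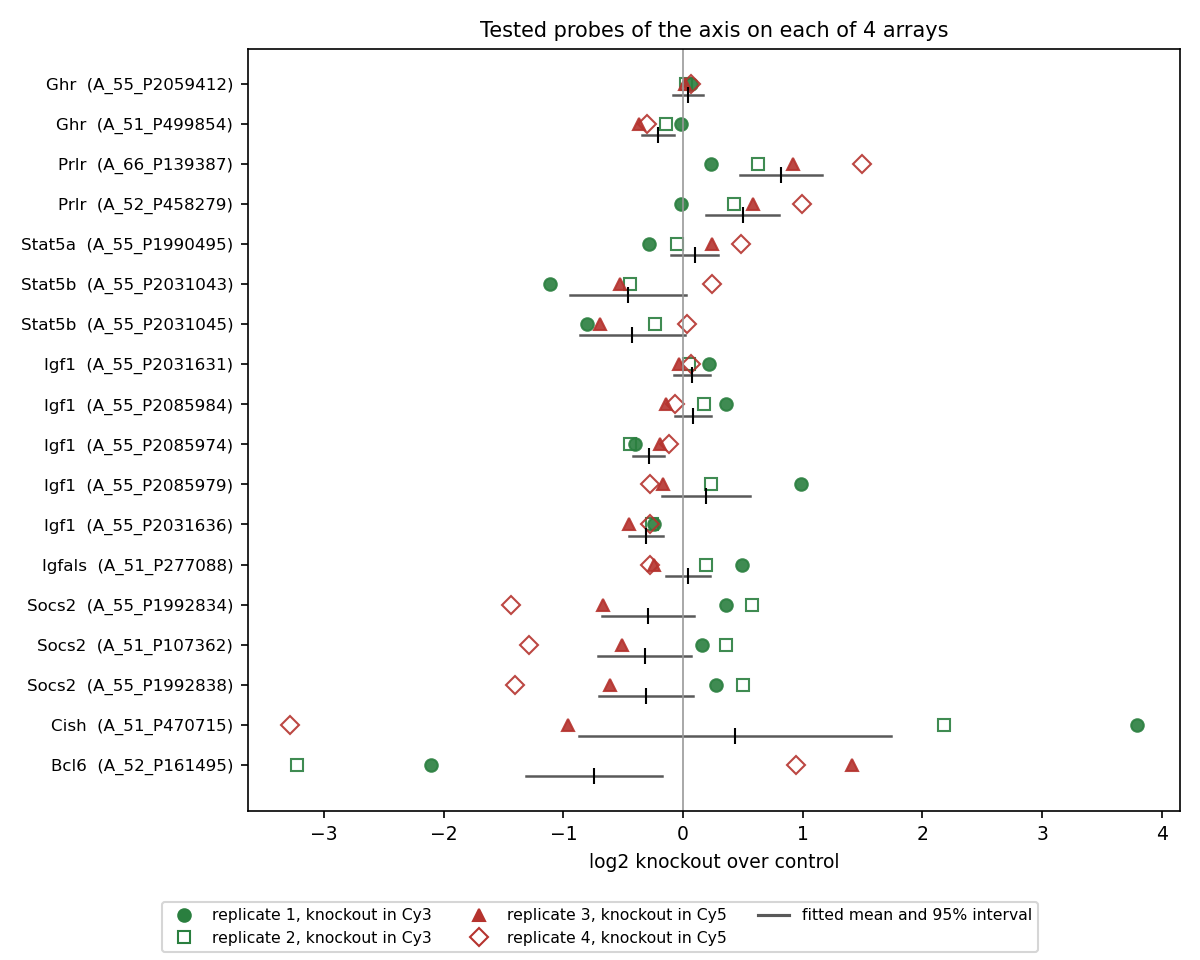
Log2 ratio of knockout over control (x axis) for the 18 tested probes of the axis (rows), with 1 point per array, green where knockout RNA carried Cy3 and red where it carried Cy5, and below the points the fitted mean with its 95% interval. The fitted means of both Prlr probes lie to the right of 0, and 2 Igf1 probes lie to the left on all 4 arrays. The points of Cish, Bcl6, Socs2, Stat5a, Igfals and 2 other Igf1 probes fall on opposite sides of 0 by colour.

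Prlr, the prolactin receptor, which in mouse liver is known to be higher in females and which also signals through STAT5, had the largest fitted ratio above 0 among the member probes. Its brighter probe, at chr15:10259066-10259125 on mm9, had levels of 11.31, 11.33, 11.44 and 11.68 in knockout mice 1 to 4, against 11.08, 10.71, 10.52 and 10.18 in control mice 1 to 4. Every knockout mouse lay above every control mouse. The ratios were 0.23, 0.62, 0.92 and 1.50 on replicates 1 to 4 (0.82 ± 0.13 SE, limma adjusted p 0.0716). Without replicate 1 the ratio was 0.92 ± 0.15 SE with an adjusted p of 0.129. The separate-channel fit gave an adjusted p of 0.00388.

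The second Prlr probe lies 3437 bases upstream, at chr15:10255629-10255688 on mm9, in the coding sequence. It is shown because both probes had higher mean levels in knockout livers while their sizes differed.
Prlr probe: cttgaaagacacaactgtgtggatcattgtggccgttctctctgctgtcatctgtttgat
Its levels were 11.02, 10.96, 11.36 and 11.12 in knockout mice 1 to 4, against 11.04, 10.53, 10.77 and 10.12 in control mice 1 to 4, so that control mouse 1 fell within the range of the knockout mice. The fitted ratio was 0.50 ± 0.11 SE (limma adjusted p 0.11). The ratio of the downstream probe was larger on each of the 4 arrays, by 0.32 ± 0.13 on the log2 scale (SD, n = 4). A two-sided exact sign-flip test gave p = 0.125, the smallest p that 4 arrays allow. Among the markers of other cell types, the 6 biliary markers were the one list whose sums did not overlap between genotypes, with 1364 to 1574 in knockout mice and 940 to 1255 in control mice, and 5 of the 6 lay above 0. Their part in the Prlr result was not tested.

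Ghr, the growth hormone receptor, gave different answers at its 2 tested probes, which were designed on different RefSeq transcripts. The probe at chr15:3277543-3277602 on mm9 belongs to the transcript that in mice is known to encode the soluble growth hormone binding protein. Its levels were 14.36, 14.28, 14.30 and 14.30 in knockout mice 1 to 4, against 14.30, 14.26, 14.29 and 14.23 in control mice 1 to 4. The 8 mice spanned 0.13 on the log2 scale, against a median span of 0.40 over all tested probes, and 1.16% of probes had a smaller span. The ratio was 0.04, with a 95% interval of -0.08 to 0.17 (limma adjusted p 0.63).

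The probe for the full-length receptor lies 9436 bases downstream, at chr15:3268107-3268166. Its levels were 13.50, 13.37, 13.24 and 13.44 in knockout mice 1 to 4, against 13.52, 13.51, 13.61 and 13.74 in control mice 1 to 4. All knockout mice lay below all control mice, and knockout mouse 1 lay close to the lowest control mouse. The ratio was -0.21 ± 0.05 SE (limma adjusted p 0.12), and the separate-channel fit gave an adjusted p of 0.0225. On each of the 4 arrays this ratio was below that of the upstream probe, by -0.08, -0.17, -0.39 and -0.37 (mean -0.25 ± 0.15 SD, two-sided exact sign-flip p = 0.125).

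Jak2 encodes the kinase bound to the receptor and was named beside the members. Its levels were 9.63, 9.71, 9.81 and 9.75 in knockout mice 1 to 4, against 10.23, 10.14, 10.04 and 9.71 in control mice 1 to 4, and the groups overlapped through control mouse 4. The ratio was -0.30 ± 0.07 SE (limma adjusted p 0.112). Across 23 tested genes of receptor signalling (among them kinases, adaptors, phosphatases and SOCS proteins other than the members), 19 had ratios below 0 and 4 above, where 50.2% of all 15159 tested genes lay below 0 and 49.8% above. At an unadjusted p under 0.05 there were 7 lower and 2 higher, against 10.5% lower and 13% higher over all genes, and none passed after adjustment, where 0.191% of all genes did. These 9 genes became 4 without the dye term, without replicate 3 and without replicate 4. The median was -0.09, against -0.00064 over all genes. The list was drawn up with earlier results of these data known, so its counts are no independent evidence of direction.

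The 4 genes of that list with the smallest p all had ratios below 0. Stat3, a transcription factor best known for the response to interleukin 6, had -0.43, -0.75, -0.33 and -0.32 on replicates 1 to 4 (-0.46 ± 0.07 SE, limma adjusted p 0.071). Sh2b2, an adaptor that binds JAK2, had -0.27, -0.43, -0.21 and -0.35 (-0.31 ± 0.06 SE, adjusted p 0.0871). Both had 1 sign on every array, while Jak2 was near 0 on replicate 4. Btrc, a subunit of a ubiquitin ligase known to act in receptor endocytosis, had -0.45, -0.44, 0.08 and 0.03 (-0.20 ± 0.05 SE, adjusted p 0.114). Its sign differed between the dye orientations, and its unadjusted p was 0.162 without the dye term.

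Stat5a and Stat5b encode the closely related transcription factors that the receptor activates, and their probes lie 104328 bases apart on chromosome 11. Stat5a had levels of 8.74, 8.67, 8.79 and 9.10 in knockout mice 1 to 4, against 9.03, 8.73, 8.55 and 8.61 in control mice 1 to 4. The groups overlapped widely, with a ratio of 0.10 and a 95% interval of -0.10 to 0.29 (limma adjusted p 0.491). The Stat5a ratio was below 0 on replicates 1 and 2 and above 0 on replicates 3 and 4. Its SE was 0.07, and 0.14 without the dye term. Stat5b, the form that predominates in liver, had levels of 10.97, 11.41, 11.53 and 11.64 in knockout mice 1 to 4, against 12.09, 11.85, 12.05 and 11.40 in control mice 1 to 4. Control mouse 4 lay within the knockout range and the other control mice lay above it. The Stat5b ratio was -0.46 with a 95% interval of -0.94 to 0.02 (limma adjusted p 0.23). A second Stat5b probe gave -0.43 ± 0.16 SE. The Stat5b value depended on the array, from -1.12 on replicate 1 to 0.24 on replicate 4, and was -0.29 without replicate 1.

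Igf1, the growth factor that the liver secretes under growth hormone, had 5 tested probes, and their ratios ran from -0.31 to 0.19. The brightest probe, at chr10:87393581-87393640, had levels of 15.28, 15.13, 15.08 and 15.22 in knockout mice 1 to 4, against 15.06, 15.08, 15.11 and 15.15 in control mice 1 to 4. The groups overlapped, and the ratio was 0.08 with a 95% interval of -0.07 to 0.23 (limma adjusted p 0.476). A probe that overlaps it, shifted by 20 bases, gave 0.08 ± 0.06 SE. The most upstream probe, designed on a second RefSeq transcript, gave 0.19 ± 0.14 SE, with 0.98 on replicate 1 and -0.28 on replicate 4. That probe and the overlapping probe were above 0 on replicates 1 and 2 and below 0 on replicates 3 and 4.

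The 2 most downstream Igf1 probes had lower mean levels in knockout livers. The probe at chr10:87395924-87395983 had levels of 9.41, 9.46, 9.04 and 9.48 in knockout mice 1 to 4, against 9.65, 9.72, 9.49 and 9.76 in control mice 1 to 4. All knockout mice lay below all control mice, by little in the case of knockout mouse 4 and control mouse 3. The ratio was -0.31 ± 0.05 SE with a limma adjusted p of 0.0808, and 0.0482 when eBayes was run with trend and robust settings, which called 3.67% of all probes. The last probe, at chr10:87399581-87399640, had ratios of -0.40, -0.44, -0.19 and -0.12 on replicates 1 to 4 (-0.29 ± 0.05 SE, limma adjusted p 0.0749). Its levels overlapped, with 12.52 to 13.04 in knockout mice and 12.72 to 13.34 in control mice. The separate-channel fit gave it an adjusted p of 0.0798.

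Set against the brightest Igf1 probe on the same array, the probe 2343 bases downstream was lower by -0.46, -0.31, -0.42 and -0.35 on replicates 1 to 4 (mean -0.38 ± 0.07 SD). The probe 6000 bases downstream was lower by -0.62, -0.49, -0.16 and -0.18 (mean -0.36 ± 0.23 SD). Both differences had 1 sign on all 4 arrays, and the two-sided exact sign-flip test gave p = 0.125 for each. Probes at different places along Igf1 thus did not give 1 ratio for the gene, and the pattern along the gene is a description of these arrays.

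**Figure D2:**
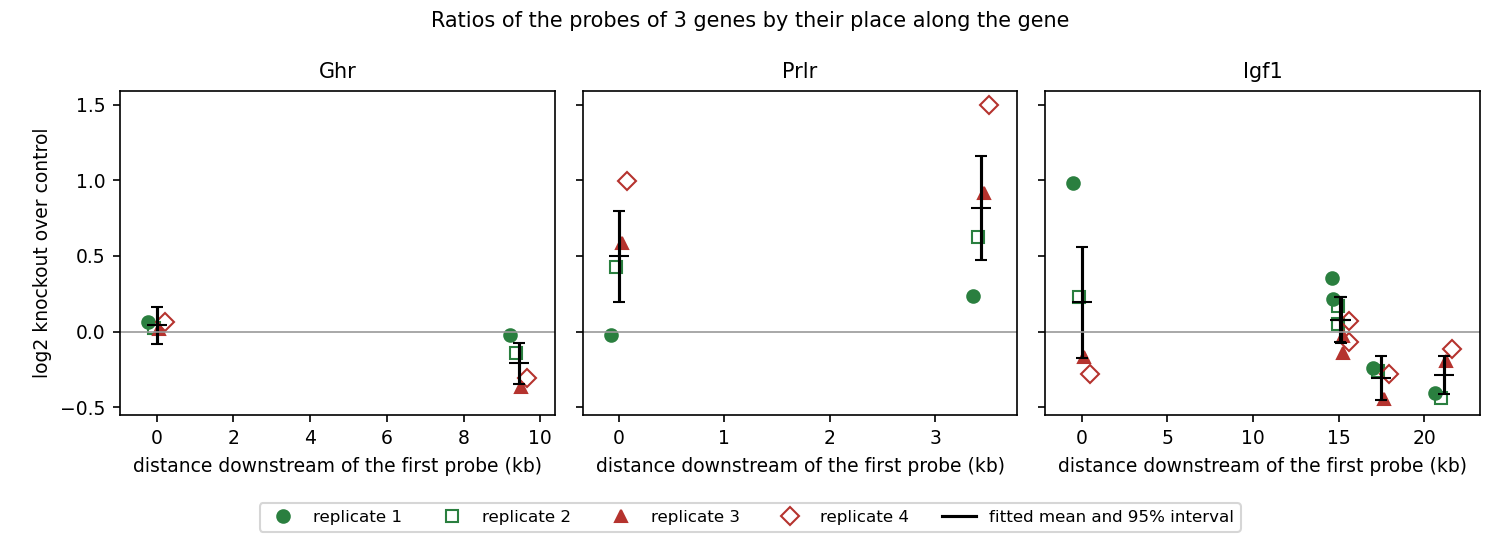
Log2 ratio of knockout over control (y axis) of the tested probes of Ghr, Prlr and Igf1 against their distance in kb downstream of the gene's first probe (x axis), 1 point per array with points shifted slightly sideways, and the fitted mean with its 95% interval in black. The downstream Ghr probe and the 2 most downstream Igf1 probes lie below the brighter probes upstream of them, and the downstream Prlr probe lies above the upstream one.

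Igfals, the acid-labile subunit that holds IGF1 in its circulating complex, had levels of 12.16, 11.80, 11.22 and 11.52 in knockout mice 1 to 4, against 11.67, 11.61, 11.47 and 11.80 in control mice 1 to 4. The knockout mice lay on both sides of the control mice. The ratios were 0.49, 0.19, -0.24 and -0.28 on replicates 1 to 4, so the sign split by dye orientation. Their mean was 0.04, with a 95% interval of -0.14 to 0.22 (limma adjusted p 0.766). The SE was 0.07, and 0.15 without the dye term. Without replicate 1 the fitted ratio was -0.035.

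Of 9 tested genes for IGF receptors, IGF-binding proteins and the insulin receptor, 4 had ratios above 0 and 5 below, with a median of -0.07. Over all genes 49.8% lay above 0 and 50.2% below. Igfbp1, a binding protein that insulin is known to suppress, had -3.06, -2.11, -1.53 and 0.13 on replicates 1 to 4 (-1.64 ± 0.33 SE, limma adjusted p 0.0959). Igfbp3, the main carrier of circulating IGF1, had 0.60, 0.45, 0.60 and -0.02 (0.41 ± 0.12 SE, adjusted p 0.154). Replicate 4 differed in sign from the other arrays for both. Igfbp2 had -0.44 ± 0.19 SE and Igfbp6 had -0.09 ± 0.05 SE, with adjusted p of 0.262 and 0.331. In the list 1 gene was higher and 1 lower at an unadjusted p under 0.05, against 13% higher and 10.5% lower over all genes. None passed after adjustment, where 0.191% of all genes did.

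Cish, a SOCS family protein whose gene is transcribed soon after STAT5 is activated, differed most among the mice. Its levels were 11.56, 10.61, 8.94 and 8.78 in knockout mice 1 to 4, against 7.76, 8.43, 9.90 and 12.07 in control mice 1 to 4. The range over the 8 mice was 19.8-fold and exceeded that of 99.86% of tested probes. Both genotypes held high and low mice. The ratios were 3.80, 2.18, -0.96 and -3.28 on replicates 1 to 4, and the fit gave 0.43 with a 95% interval of -0.87 to 1.74 (limma adjusted p 0.638). That interval rests on an SE of 0.48, which was 1.18 without the dye term. Without replicate 1 the fitted ratio was 0.03.

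The high Cish mice were those labelled Cy3. All 4 mice labelled Cy3 lay above all 4 labelled Cy5, with a mean 5.88-fold higher in the Cy3 mice, whichever their genotype. The dye term of the fit was -2.56 for Cy5 over Cy3 on the log2 scale, the largest in size of all 20816 tested probes, where the median size was 0.09. Mice of the 2 dyes did not overlap at 2 member probes, those of Cish and Bcl6, against 10.8% of all probes. Each mouse was labelled with 1 dye only, so dye and mouse cannot be told apart.

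Bcl6, a transcriptional repressor that is known to be lowered by STAT5 in liver and to act at many of the same genes, showed the reverse pattern. Its levels were 11.57, 9.97, 11.82 and 12.24 in knockout mice 1 to 4, against 13.68, 13.19, 10.40 and 11.29 in control mice 1 to 4. All 4 mice labelled Cy5 lay above all 4 labelled Cy3, and the range over the 8 mice was 13.1-fold. The ratios were -2.11, -3.22, 1.41 and 0.94 on replicates 1 to 4, opposite in sign to those of Cish on each array. The fit gave -0.74 ± 0.21 SE (limma unadjusted p 0.0214, adjusted p 0.149). Without the dye term the SE was 0.85 and the unadjusted p was 0.416. The fitted ratio was -1.02 without replicate 1 and -0.46 without replicate 2. The dye term of 1.92 ranked 8 in size among all tested probes. Dye and mouse cannot be told apart here either. No correlation between Cish and Bcl6 is given, because mice of the 2 dyes did not overlap at either probe.

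Socs2, a ubiquitin ligase subunit that targets the growth hormone receptor, followed the sign of Cish on every array with smaller values. Its brightest probe had levels of 9.18, 8.96, 7.64 and 7.95 in knockout mice 1 to 4, against 8.82, 8.38, 8.31 and 9.39 in control mice 1 to 4. The ratios were 0.36, 0.57, -0.67 and -1.44 on replicates 1 to 4, and the fit gave -0.29 with a 95% interval of -0.68 to 0.09 (limma adjusted p 0.3). That interval rests on an SE of 0.14, which was 0.35 without the dye term. Unlike Cish, mice of the 2 dyes overlapped, since control mouse 3 lay below control mice 1 and 2. The other 2 probes nearby gave -0.32 and -0.31, with adjusted p of 0.277 and 0.294. A probe named Socs2 that lies 27182 bases away was not well above background in any mouse.

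**Figure D3:**
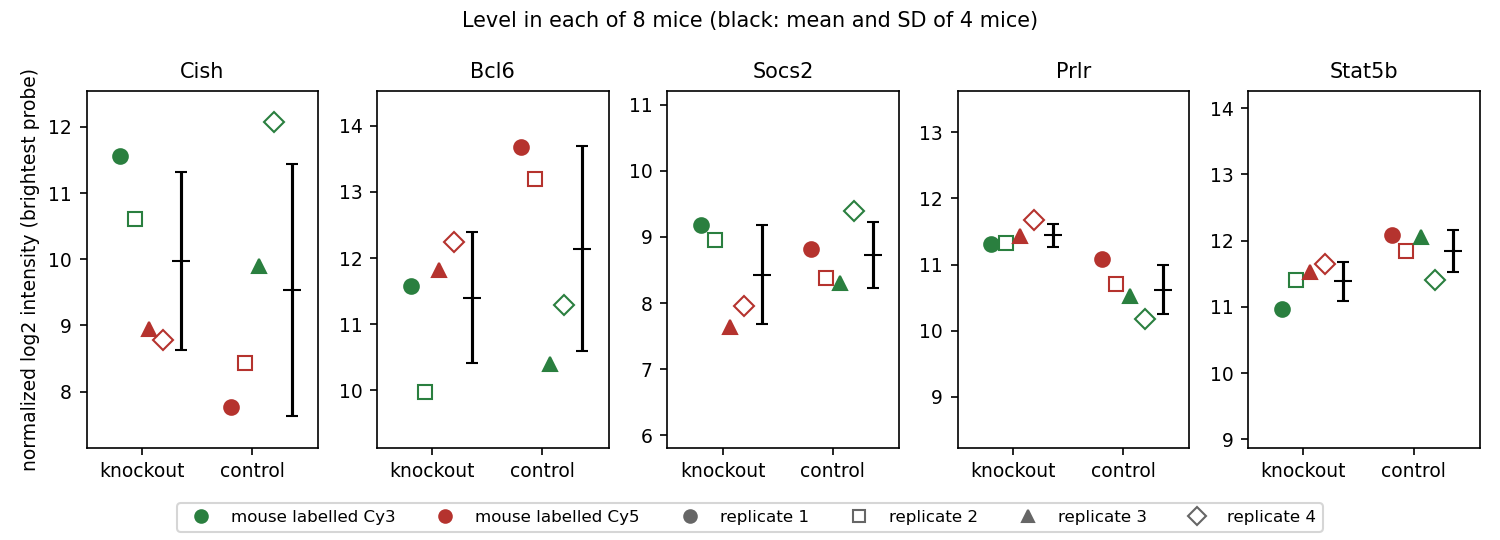
Normalized log2 intensity (y axis, each panel spanning the same number of log2 units) of the brightest probe of Cish, Bcl6, Socs2, Prlr and Stat5b in each of 4 knockout and 4 control mice, green for mice labelled Cy3 and red for mice labelled Cy5, with the mean and SD of 4 mice in black. Cish is high in green and Bcl6 in red symbols of both genotypes, while for Prlr all knockout mice lie above all control mice.

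Cux2, a repressor known to be expressed in female but not male mouse liver, had 2 probes on the array and neither was tested. One was well above background in 1 knockout mouse and 1 control mouse, and the other in none. No ratio is drawn from them.

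By the root mean square difference over the 4 array ratios, the genes most like the brightest Socs2 probe among all tested genes were Dnajb1 (0.0364), Apobec1 (0.179) and Sdc4 (0.204). Dnajb1, a heat shock co-chaperone, had 0.40, 0.57, -0.71 and -1.39 on replicates 1 to 4. The genes most like the brightest Igf1 probe were Mtpap (0.0232), C1s (0.0237) and Fndc3a (0.0248), all with ratios near 0. Likeness over 4 arrays is a description of these arrays.

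Genes of sex-biased expression, which in mouse liver are known to depend on the growth hormone pattern and STAT5B, were set beside the members, in lists drawn up with earlier results known and so no independent evidence of direction. Of 18 tested male-biased genes, 15 had ratios below 0 and 3 above, against 50.2% of all genes below 0, and 9 were lower at an unadjusted p under 0.05, against 10.5% of all genes. A gene dim in knockout livers could be tested through the control mice alone, so this count is no support for a direction. The list also holds related genes (Mup, Cyp4a12) whose probes may share signal, so 1 signal may be counted more than once. Of the 17 genes well above background in all 8 mice, 14 lay below 0 and 3 above, with a median of -0.51. At an unadjusted p under 0.05 in either direction there were 8 of these 17. The median of the 18 was -0.54, with medians of 0.33, -0.43, -1.30 and -0.76 on replicates 1 to 4. It was -0.81 without replicate 1 and -0.28 without replicate 2, where 13 genes lay below 0 and 5 above. Slco1a1, an organic anion transporter, had -0.30, -0.58, -1.81 and -1.32 (-1.004 ± 0.106 SE, limma adjusted p 0.0524). Cspg5, a chondroitin sulfate proteoglycan, had -1.03 ± 0.12 SE (adjusted p 0.0556) and was below 0 on all 4 arrays. Susd4 had -1.23 ± 0.17 SE (adjusted p 0.0634) and was above 0 on replicate 1. Keg1 had 0.68, 0.19, -1.31 and -1.34 (-0.44 ± 0.10 SE, adjusted p 0.105), so its sign split by dye orientation, and its unadjusted p was 0.302 without the dye term.

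The 17 tested female-biased genes, of 25 on the array, had fitted ratios above 0, against 49.8% of all genes, and 8 were higher at an unadjusted p under 0.05, against 13% of all genes. A gene dim in control livers could be tested through the knockout mice alone, so this count is no support for a direction. Related genes in this list too (Cyp2b, Slc22a) may share signal and be counted more than once. The 11 genes well above background in all 8 mice also had ratios above 0, 5 of them at an unadjusted p under 0.05 in either direction, with a median of 0.49. The median of the 17 was 0.78, with medians of -0.31, 0.95, 0.96 and 1.04 on replicates 1 to 4. It was 1.23 without replicate 1, and 0.34 without replicate 2, where 15 genes lay above 0 and 2 below. Cyp2a4, a steroid hydroxylase, had 0.66, 1.79, 2.01 and 1.04 (1.37 ± 0.26 SE, limma adjusted p 0.0893), and its near-identical paralogs may share the probe's signal. Acot3, a peroxisomal thioesterase, had -0.23, 1.46, 2.28 and 2.05 (1.39 ± 0.29 SE, adjusted p 0.103). Slc22a26 had 1.65 ± 0.23 SE and Trim24 had 0.41 ± 0.06 SE, with adjusted p of 0.0641 and 0.0701. No gene of either list passed after adjustment, and replicate 1 had the opposite sign of list median from the other arrays in both.

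Of 10 tested lipid genes known to be higher in mouse livers that lack growth hormone signalling, 9 had ratios above 0, against 49.8% of all genes, and 5 were higher at an unadjusted p under 0.05, against 13% of all genes. This list too was drawn up with earlier results of these data known, so its counts are no independent evidence of direction. The median of the 10 genes was 0.38, and the list medians lay above 0 on all 4 arrays. Without replicate 1 there were 7 above 0 and 3 below, with a median of 0.27. Pparg, a nuclear receptor for fatty acids, had 0.43, 0.18, 1.36 and 0.69 (0.67 ± 0.13 SE, limma adjusted p 0.0933). Vldlr, a lipoprotein receptor, had -0.60, 1.31, 1.57 and 2.09 (1.09 ± 0.34 SE, adjusted p 0.168). Cd36, a fatty acid receptor, and Mogat1, an acyltransferase, had 2.01 ± 0.19 SE and 1.88 ± 0.17 SE, each above 0 on all 4 arrays, with adjusted p of 0.0524 and 0.0522.

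Of 20 tested regulators of liver sex bias other than the members, 13 had ratios above 0 and 7 below, with a median of 0.05. Over all genes 49.8% lay above 0 and 50.2% below. At an unadjusted p under 0.05, 5 regulators were higher and 1 lower, against 13% higher and 10.5% lower over all genes. None passed after adjustment, where 0.191% of all genes did. Esr1, the estrogen receptor, had -0.14, -0.33, 0.76 and 0.71 (0.25 ± 0.06 SE, limma adjusted p 0.107). Foxa3, a forkhead factor of hepatocytes, had 0.23, -0.11, -0.84 and -1.37 (-0.52 ± 0.12 SE, adjusted p 0.107). Tox had 0.85 ± 0.23 SE (adjusted p 0.142). Tox and Trim24 stand in the female-biased list as well, with the same probes, so these lists are not separate. Esr1 gave opposite signs in the 2 dye orientations, while Tox differed in sign on replicate 1 alone.

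**Figure D4:**
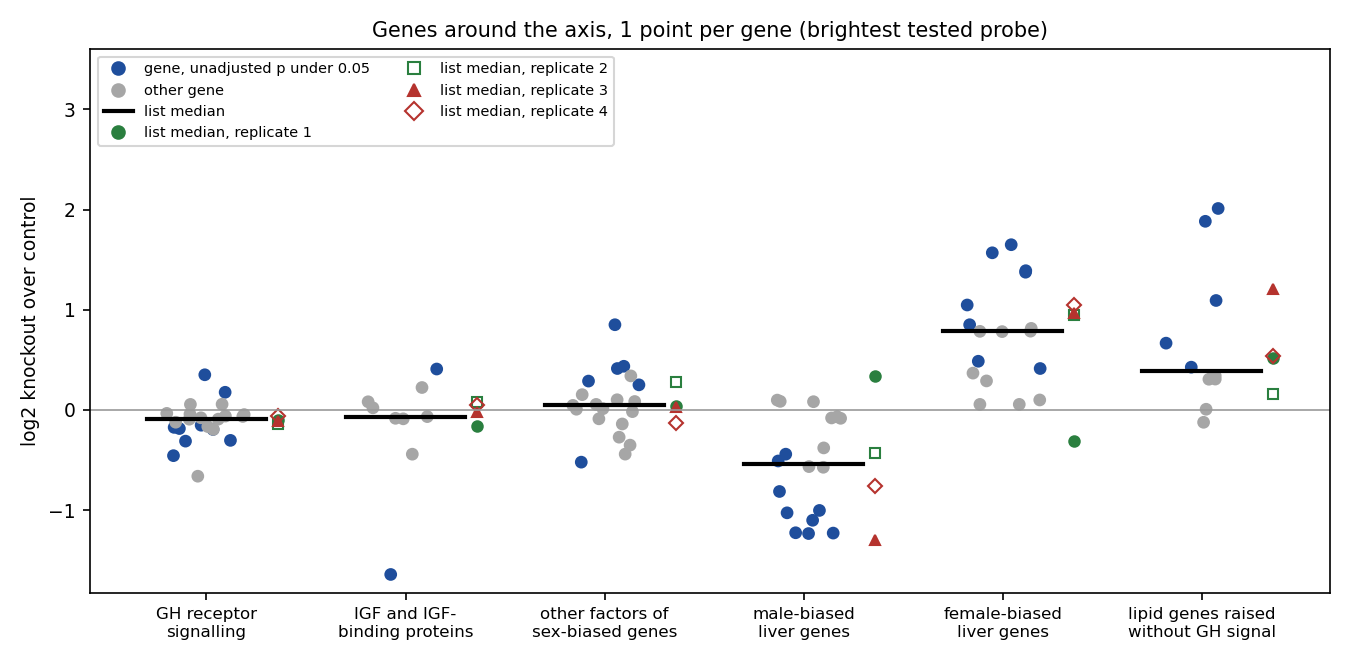
Log2 ratio of knockout over control (y axis) for genes of 6 lists around the axis (x axis), 1 point per gene from its brightest tested probe, blue at an unadjusted p under 0.05, with the list median as a black line and the list median of each array beside it. Male-biased genes lie mostly below 0 and female-biased genes above 0, and the array medians of both lists change sign on replicate 1.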

How the data were processed

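The deposited scanner files hold an intensity for each spot and dye (mean signal and local median background), made with Agilent Feature Extraction 10.7.3.1 per the file headers, which also name build mm9. The log2 ratios deposited by the authors as a value table equalled log2 knockout over control of the processed intensities within 0.0001 for all 43020 values of each array, with column medians of -0.05, 0.14, -0.18 and -0.18.

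Background was corrected by normexp (offset 50) fitted on spots without non-uniformity marks, because fitting on every spot failed on replicate 1 (background mean -273 in Cy3 there, against 4.45 to 5.76 on the others). An offset added to both dyes draws the ratios of dim probes toward 0. Processed signals gave mean ratios of -2.78 for Cspg5 and 3.28 for Slc22a26, where the fit gave -1.03 and 1.65. Ratios were loess-normalized, with control spots and outlier marks left out, and spots of a probe averaged. The fit used limma 3.58.1 in R 4.3.3 on all 20816 probes, with a dye term, two-sided p-values, Benjamini-Hochberg adjustment and a threshold of 0.05, and was tested on simulated data. Levels per mouse came from loess and Aquantile. In lists a gene stood by its brightest tested probe, since 3783 genes had several. Names come from the files (27234 of 39429 probes matched RefSeq; 2744 were unnamed).

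Members and lists were chosen with earlier results of these data known. The text names the targeted gene, every member, Jak2, the 4 genes of each list with the smallest p and the 3 genes most like Igf1 and Socs2. Replicates share a number only through their array. Also used were statmod 1.5.0, version 1.17.8 of the R package data.table and matplotlib 3.10.9.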

Additional observations from a re-analysis of the deposited data

Results flagged for a closer look

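The level of the Igf1 probe at chr10:87395924-87395983 in the 4 knockout mice was flagged because 1 mouse lay far from the others. Knockout mouse 3 had 9.04 on the log2 scale, against 9.41 to 9.48 in the other knockout mice, a gap of 0.845 of the group's range, past Dixon's 95% critical value. Of 54 groups of 4 mice checked, this was the 1 past that value, and chance passes about 1 group in 20.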

How the results depend on the processing

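Over all probes, limma called 36 at an adjusted p under 0.05, and the count moved with nearly every choice. It was 10 with processed signals, 141 without background correction, 335 with median centring, 64 without the dye term, 503 without the filter, 184 with probes above background in all channels, 3654 in the separate-channel fit and 763 with eBayes trend and robust settings. It was 0 with normexp fitted on all spots (4607 at an unadjusted p under 0.05), 0 with 1 probe per gene (3681), and 0 to 0 when replicates were left out in turn (2746 to 3864). The count of called members, 0 in limma (6 unadjusted), was 4 in the separate-channel fit and 1 with trend and robust settings, and 0 in the other 12 alternatives run. The 5 member probes with 1 sign on all arrays became 1 with median centring and 2 with 1 probe per gene. The median of the receptor signalling list was -0.16 with processed signals, and that of the female-biased list ran from 0.34 without replicate 2 to 1.24 with processed signals, with 0.49 for genes above background in all channels. The male-biased median ran from -0.81 without replicate 1 to -0.28 without replicate 2, the lipid median from 0.27 to 0.55, and the IGF list median turned to 0.0047 without replicate 3.

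Leaving out replicates in turn turned Igfals (-0.035 to 0.114) and Cish (-0.148 to 1.01), both uncalled. Over all 14 alternatives Prlr ran from 0.67 to 0.96, Stat5b from -0.65 to -0.27, Socs2 from -0.49 to -0.10 and Bcl6 from -1.02 to -0.46. The cause of these moves was not tested. The fit on array ratios is itself paired by array, with no further block. The 4 arrays leave 2 residual degrees of freedom per probe and limit the precision.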

Other observations

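Within the mice labelled Cy3, Cish and Socs2 put the mice in the same order, with control mouse 4 highest, then knockout mouse 1, knockout mouse 2 and control mouse 3. Within the mice labelled Cy5 the orders were opposed, since Cish was highest in knockout mouse 3 (8.94) and lowest in control mouse 1 (7.76), while Socs2 was lowest in knockout mouse 3 (7.64) and highest in control mouse 1 (8.82). These orders were seen in the values and were not tested.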
